A study of Mus musculus with 6 samples.

Results

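Heat shock proteins and their cochaperones were followed in the first lumbar segment (L1) of the mouse spinal cord. The group was defined by gene symbol, as all probe sets whose single platform symbol begins with Hspa, Hspb, Hspd, Hspe or Hsph, is a numbered Hsf, begins with Dnaja, Dnajb or Dnajc, or is Bag1 to Bag6. This gave 182 probe sets for 80 genes, of 18193 genes with a symbol on the array. Of the 80 genes, 67 had a probe set above the filter on dim probe sets and could be tested, and 13 did not. The symbol Hsf1 was carried by 0 probe sets, and the Hsp90 genes lie outside the definition, so Hsp90aa1 and Hsp90b1 are given only for comparison.

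The N-inv mice carried Capan-1 cells, a line from a human pancreatic carcinoma, in the sciatic nerve of the left side. The SC mice carried them subcutaneously, and the PBS mice received vehicle without tumour cells. All were male mice with severe combined immunodeficiency (SCID), which lack mature T and B lymphocytes but keep myeloid cells, and were sampled 6 weeks after injection at an age of 15 weeks. Each group had 2 arrays. The array titles carry a different number for each array, but the labels do not state whether both arrays of a group are from different mice. The p-values thus reflect the spread between samples, which can be technical. The tumour cells were of a single line and were placed outside the cord.

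Cells under proteotoxic stress switch on a set of molecular chaperones, proteins that hold and refold unfolded chains. The switch is thrown by heat shock factors, which bind repeated GAA units in alternating orientation, the heat shock elements, upstream of genes such as Hspa1a and Hspa1b. HSP70 proteins (the Hspa genes) bind unfolded segments in a cycle driven by ATP. J-domain proteins (the Dnaj genes) start that cycle, and most BAG proteins, HSPBP1 and the HSP110 proteins end it by exchanging the nucleotide. Small heat shock proteins (Hspb) hold unfolded chains without ATP, and HSPD1 with HSPE1 folds proteins inside mitochondria. In spinal cord, HSPB1 is known as a protein of injured neurons and reactive astrocytes.

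The start regions of Hspa1a, Hspa1b, Hspb1 and Hspe1 are shown first, as RefSeq gives them in build GRCm38.p6. Each runs from 250 bases before to 50 bases after the annotated start of transcription. Hspa1a, Hspa1b and Hspb1 are among the members of smallest unadjusted p in limma between N-inv and PBS. Hspe1 is not, and is shown for its longer match to the units. Dnajb1 is also among those members, but its start regions held no match and are not shown. Hspa1a lies at chr17:34972107-34972406 and Hspa1b at chr17:34959189-34959488, both on the minus strand. Hspb1 lies at chr5:135887669-135887968 and Hspe1 at chr1:55087898-55088197, both on the plus strand. Capitals mark matches to pairs of alternating GAA units, spelled GAANNTTC or TTCNNGAA, each of which reads the same on both strands, and the longer 3-unit forms, in which a further TTC or GAA unit follows such a pair after 2 bases of any kind. The 3-unit forms contain the pairs, and one is the other read on the opposite strand.
Hspa1a: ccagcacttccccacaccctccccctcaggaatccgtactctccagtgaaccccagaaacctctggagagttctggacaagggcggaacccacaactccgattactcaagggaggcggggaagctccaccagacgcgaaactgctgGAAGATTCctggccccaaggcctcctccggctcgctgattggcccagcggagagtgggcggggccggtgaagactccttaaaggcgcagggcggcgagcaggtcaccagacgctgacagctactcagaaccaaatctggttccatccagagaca
Hspa1b: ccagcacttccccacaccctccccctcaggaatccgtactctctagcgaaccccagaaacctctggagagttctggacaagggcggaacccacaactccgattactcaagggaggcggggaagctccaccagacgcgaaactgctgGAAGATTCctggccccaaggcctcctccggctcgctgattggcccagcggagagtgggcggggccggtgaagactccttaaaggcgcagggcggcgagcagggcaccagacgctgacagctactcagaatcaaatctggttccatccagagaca
Hspb1: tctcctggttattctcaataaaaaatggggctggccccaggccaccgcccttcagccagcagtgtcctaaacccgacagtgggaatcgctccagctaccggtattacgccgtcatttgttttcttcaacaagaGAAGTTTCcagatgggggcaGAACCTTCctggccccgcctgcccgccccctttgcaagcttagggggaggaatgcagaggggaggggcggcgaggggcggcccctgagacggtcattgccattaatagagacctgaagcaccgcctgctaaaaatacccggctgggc
Hspe1: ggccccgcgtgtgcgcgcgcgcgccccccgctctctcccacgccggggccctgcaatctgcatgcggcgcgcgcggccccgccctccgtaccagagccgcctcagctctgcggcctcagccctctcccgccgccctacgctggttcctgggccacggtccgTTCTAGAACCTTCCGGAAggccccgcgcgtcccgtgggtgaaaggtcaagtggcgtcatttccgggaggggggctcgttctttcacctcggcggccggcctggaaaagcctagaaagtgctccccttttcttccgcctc
The Hspa1a and Hspa1b windows were 98.7% identical, with 4 differences in 300 bases. Counted from 1 at the 5′ end of the window, with the Hspa1a base first, these were C44T, T47C, T249G and C276T. Each of the pair held 1 pair of units, starting 104 bases before the start, and neither held a 3-unit form in this window. Hspb1 held 2 pairs. Hspe1 held 2 overlapping 3-unit forms within one stretch, and shared 285 bases of its window with a start region of Hspd1, which runs the opposite way. A start region was found for 66 of the 80 members. Of these 66 members, 27.3% had a pair of units or more and 6.06% a 3-unit form, against 17.0% and 0.662% of all 27025 genes with such a region. The 4 members with a 3-unit form were Hspd1, Hspe1, Hsph1 and Dnajb6. These are matches of letters and not measured binding sites.

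Markers of cord tissue were present on all 6 arrays: Snap25 of neurons measured 45670 to 58930, Mbp of myelin 69490 to 83560 and Aqp4 of astrocytes 17090 to 28370. SC replicate 2 held Xist, the RNA of the inactive X chromosome, at a scaled intensity of 13040, against 138.3 to 228.1 on the other 5 arrays, although all mice are labelled male. The 2 SC arrays also had the lowest median correlations with the other arrays, 0.97 and 0.969 against 0.98 for the rest. For Actb the control probes at the 3′ end read 3.32 and 3.42 times those at the 5′ end in N-inv, 3.81 and 4.7 times in SC, and 3.05 and 3.57 times in PBS, a ratio that grows as RNA is degraded. The main differences and counts that rest on SC are therefore also given without SC replicate 2. All values are scaled intensities of a probe set, and intensities of different probe sets are not compared, since probes differ in affinity.

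The inducible HSP70 genes were the members with the largest difference between N-inv and PBS. Hspa1b, read by its brightest probe set, measured 633.5 and 1638 in N-inv, 2762 and 1212 in SC and 3981 and 7685 in PBS. Both N-inv arrays and both SC arrays lay below both PBS arrays, and the N-inv and SC arrays overlapped. The log2 difference between N-inv and PBS was -2.41 ± 0.57 (SE, 2 arrays each), but it did not pass the adjusted threshold (adjusted p = 1.0, limma). With each gene read by its brightest probe set it was the lowest of the 12626 genes tested; over all 27022 probe sets 1 lay lower, a dimmer one of Depp1 at -3.02. The rank depended on single arrays. It was 1 without PBS replicate 1 (-2.88) or N-inv replicate 2 (-3.08), but 6 when PBS replicate 2 was left out (-1.94) and 12 when N-inv replicate 1 was (-1.74). The PBS mean was 5.14 times the N-inv mean, and the lowest PBS array was 2.43 times the highest N-inv array.

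The other probe sets of Hspa1b gave the same order of N-inv and PBS. The second brightest measured 755.8 and 1569 in N-inv, 3064 and 815.7 in SC and 3823 and 6549 in PBS. The dimmest measured 430.9 and 938.0 in N-inv, 2524 and 661.1 in SC and 2217 and 4258 in PBS. Their log2 differences between N-inv and PBS were -2.17 ± 0.64 and -2.22 ± 0.67 (SE, 2 arrays each; adjusted p = 1.0 in limma for both). On the dimmest probe set SC replicate 1 lay above PBS replicate 1, so that SC and PBS overlapped there.

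Hspa1a, the neighbouring copy of the gene, was read by 1 probe set. It measured 683.3 and 1054 in N-inv, 1429 and 844.2 in SC and 1472 and 2490 in PBS. The array order was that of the brightest Hspa1b probe set, with N-inv and SC below PBS. The log2 difference between N-inv and PBS was -1.15 ± 0.37 (SE, 2 arrays each; adjusted p = 1.0, limma), rank 19 from the lowest of 12626 genes. It was rank 98 without PBS replicate 2 (-0.78), 109 without N-inv replicate 1 (-0.85) and 4 without PBS replicate 1 (-1.52). Because Hspa1a and Hspa1b are near-identical copies, probes of one can take up RNA of the other, and how far the pair can be told apart on these arrays was not tested. Hspa1l, another gene of this cluster, averaged 31.46 and lay below the filter.

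**Figure D1:**
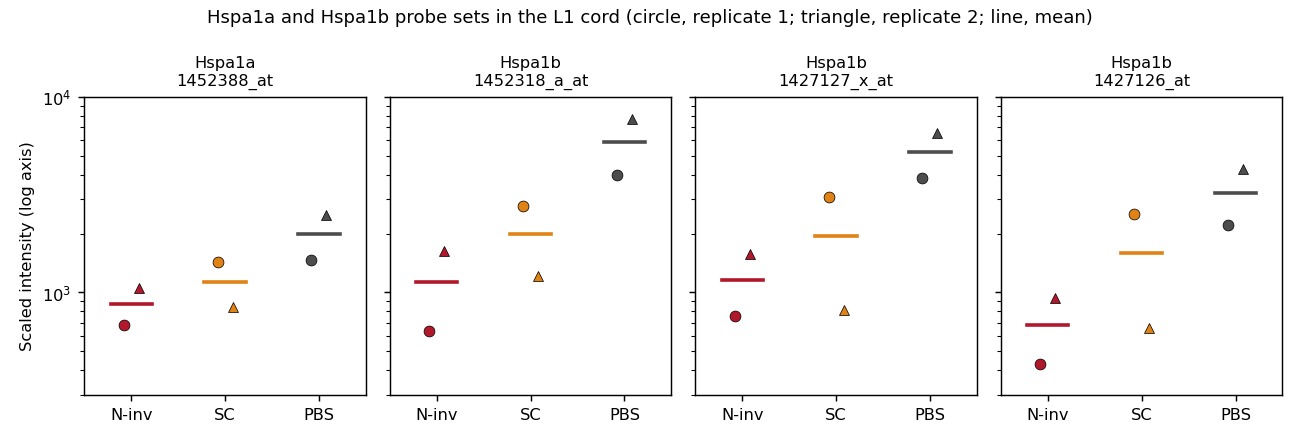
Scaled intensity (log axis) of the 4 probe sets of Hspa1a and Hspa1b on the 2 arrays of each group, with circles for replicate 1, triangles for replicate 2 and lines for group means. Both N-inv arrays lie below both PBS arrays on all 4 probe sets, while SC replicate 2 lies between the N-inv arrays and SC replicate 1 lies higher, above the lower PBS array on the dimmest Hspa1b probe set.

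The spread of these genes within a group was wide. The higher of the 2 arrays was 2.58 times the lower in N-inv, 2.28 times in SC and 1.93 times in PBS for the brightest Hspa1b probe set. The pooled within-group SD of Hspa1b was 0.82 on the log2 scale, above that of 99.2% of genes, and that of Hspa1a was 0.50, above 95.5%. The median over members was 0.19, against 0.18 over all genes. Between SC and PBS the log2 difference of Hspa1b was -1.58 ± 0.57 (SE; adjusted p = 0.601, limma) and that of Hspa1a -0.79 ± 0.37 (SE; adjusted p = 0.673, limma). Between N-inv and SC they were -0.83 ± 0.57 (SE; adjusted p = 0.72, limma) and -0.36 ± 0.37 (SE; adjusted p = 0.826, limma).

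Other measures differed between the same arrays. The Gapdh 3′ to 5′ ratio was 3.12 and 3.38 in N-inv, 3.52 and 3.38 in SC and 2.82 and 3.02 in PBS, so that PBS had the lowest ratios as well as the highest Hspa1a and Hspa1b. Its part in the result was not tested. Fos, a gene of neuronal activity and tissue handling, measured 6074 and 7729 in N-inv, 6082 and 5969 in SC and 6692 and 6447 in PBS, and its N-inv and PBS arrays overlapped. Fos is 1 of 13 genes of an immediate early list described below. In N-inv 6 of these lay above PBS without overlap and 1 below, where 25.2% and 12.6% of all genes did. The part of these genes in the Hspa1a and Hspa1b values was not tested.

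Of the constitutive HSP70 genes named here, 2 overlapped in all groups and 2 lay above PBS in both tumour groups by their brightest probe set. HSP70 and HSP110 genes above the filter numbered 12. N-inv lay above PBS without overlap for 2 of them and below for 2, which were Hspa1a and Hspa1b. The shares over all genes were 25.2% and 12.6%. Hspa8, the abundant cytosolic HSC70, measured 51540 and 60190 in N-inv, 57160 and 58260 in SC and 45590 and 60240 in PBS, and the log2 difference between N-inv and PBS was 0.09 ± 0.19 (SE; adjusted p = 1.0, limma). Hspa5, the chaperone BiP of the endoplasmic reticulum, measured 17960 and 22820 in N-inv, 22890 and 17720 in SC and 16970 and 22440 in PBS. The groups overlapped for Hspa8 and Hspa5 by these probe sets. The second brightest Hspa8 probe set averaged 35000 in N-inv, 35190 in SC and 31620 in PBS, with both tumour groups above PBS. The dimmest Hspa5 probe set averaged 1183 in N-inv, 1401 in SC and 1364 in PBS, with N-inv below PBS. A further constitutive gene is Hspa9, the HSP70 of mitochondria. It measured 9209 and 8943 in N-inv, 8375 and 12170 in SC and 6939 and 8087 in PBS, with both tumour groups above PBS. Its other bright probe set measured 7002 and 6931 in N-inv, 6027 and 8188 in SC and 6664 and 7510 in PBS, where the groups overlapped. Hspa14, which acts at the ribosome, measured 2207 and 2323 in N-inv, 2192 and 1972 in SC and 1865 and 1720 in PBS by its brightest probe set. Its other tested probe set ran the opposite way, at 416.8 and 472.5 in N-inv, 399.7 and 370.6 in SC and 546.8 and 519.1 in PBS. The HSP110 gene Hsph1 measured 13060 and 15340 in N-inv, 14420 and 14150 in SC and 14070 and 17540 in PBS. The groups overlapped on this probe set. Its dimmer probe set averaged 3941 in N-inv, 3368 in SC and 4423 in PBS. On that one both tumour groups lay below both PBS arrays.

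A dim probe set of Hspa8 stood apart from the bright ones. It measured 310.4 and 256.7 in N-inv, 931.5 and 453.8 in SC and 286.4 and 195.9 in PBS, so that both SC arrays lay above the other 4. Its log2 difference between SC and PBS was 1.37 ± 0.35 (SE; adjusted p = 0.518, limma), while the brightest probe set gave 0.14 ± 0.19. It was chosen after its values were seen. Of the 40 members with 2 or more tested probe sets, 22 had probe sets of opposite sign between N-inv and PBS, 21 between N-inv and SC and 21 between SC and PBS.

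Of the small heat shock proteins, Hspb1 (HSP27) lay in the opposite direction to Hspa1b. It measured 4560 and 4939 in N-inv, 3730 and 4983 in SC and 3020 and 3144 in PBS. Both N-inv and both SC arrays lay above both PBS arrays. The log2 difference was 0.62 ± 0.19 between N-inv and PBS (SE; adjusted p = 1.0, limma), 0.48 ± 0.19 between SC and PBS (SE; adjusted p = 0.626, limma) and 0.14 ± 0.19 between N-inv and SC. The other Hspb1 probe set gave the same order, at 2916 and 3324 in N-inv, 2095 and 3599 in SC and 1969 and 1664 in PBS.

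Summed marker levels differed between the same groups. The 5 astrocyte markers summed to 93240 and 88720 in N-inv, 54700 and 80850 in SC and 65770 and 73050 in PBS, and Gfap alone measured 20480 and 19170 in N-inv, 4632 and 15350 in SC and 6653 and 7913 in PBS. N-inv lay above PBS without overlap for 3 of the 5 astrocyte markers and below for 1, where 25.2% and 12.6% of all genes did. The astrocyte sum and Gfap were highest in N-inv and lowest in SC replicate 1. The 6 microglia markers summed to 27450 and 23020 in N-inv, 14540 and 17170 in SC and 17020 and 17640 in PBS. N-inv lay above PBS without overlap for 6 of 6 (25.2% of all genes). The 5 neuron markers summed to 147400 and 151300 in N-inv, 136900 and 158400 in SC and 140500 and 143700 in PBS. In N-inv 2 of 5 lay above PBS without overlap (25.2% of all genes). The sensory neuron markers, 3 of 4 measured and nearly all Prph, summed to 6663 and 5282 in N-inv, 3233 and 5321 in SC and 4638 and 3791 in PBS. In bulk tissue more or fewer cells of a type and more or less RNA per cell cannot be told apart, and the part of these cell types in the Hspb1 values was not tested.

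Hspb11, which carries the name of the family but encodes the intraflagellar transport protein IFT25, separated the SC arrays. It measured 1490 and 1692 in N-inv, 1179 and 1056 in SC and 1547 and 1790 in PBS. The log2 difference was 0.50 ± 0.17 between N-inv and SC (SE; adjusted p = 0.496, limma) and -0.57 ± 0.17 between SC and PBS (SE; adjusted p = 0.556, limma), while N-inv and PBS overlapped. Hspb8, a partner of BAG3 in the clearance of misfolded proteins, measured 2445 and 2852 in N-inv, 2110 and 3399 in SC and 2820 and 3041 in PBS. Hspb6 and Hspb2, known mainly from muscle, had log2 differences between N-inv and PBS of -0.18 ± 0.23 and -0.51 ± 0.51 (SE). The skeletal muscle markers summed to 649.7 and 996.1 in N-inv, 446.8 and 535.1 in SC and 557.2 and 662.9 in PBS, with 1 of 6 above the filter.

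Of the mitochondrial chaperonin pair, Hspd1 measured 9263 and 11190 in N-inv, 9331 and 9661 in SC and 9761 and 10960 in PBS, and Hspe1 7169 and 5779 in N-inv, 6561 and 6292 in SC and 6963 and 7611 in PBS. Both SC arrays of each gene lay below both PBS arrays, by log2 differences of -0.12 ± 0.17 and -0.18 ± 0.17 (SE), which are near the standard error. A dimmer Hspe1 probe set averaged 851.1 in N-inv, 751.5 in SC and 1005 in PBS, with both tumour groups below PBS. Hsf2, a heat shock factor, was dim, at 172.8 and 224.5 in N-inv, 186.8 and 190.1 in SC and 254.6 and 237.9 in PBS, with both tumour groups below PBS. Hspbap1, the HSPB1 associated protein 1, measured 262.5 and 207.8 in N-inv, 248.1 and 150.8 in SC and 352.9 and 374.8 in PBS. Its log2 difference was -0.83 ± 0.24 between SC and PBS (SE; adjusted p = 0.544, limma) and -0.59 ± 0.24 between N-inv and PBS (SE; adjusted p = 1.0, limma).

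**Figure D2:**
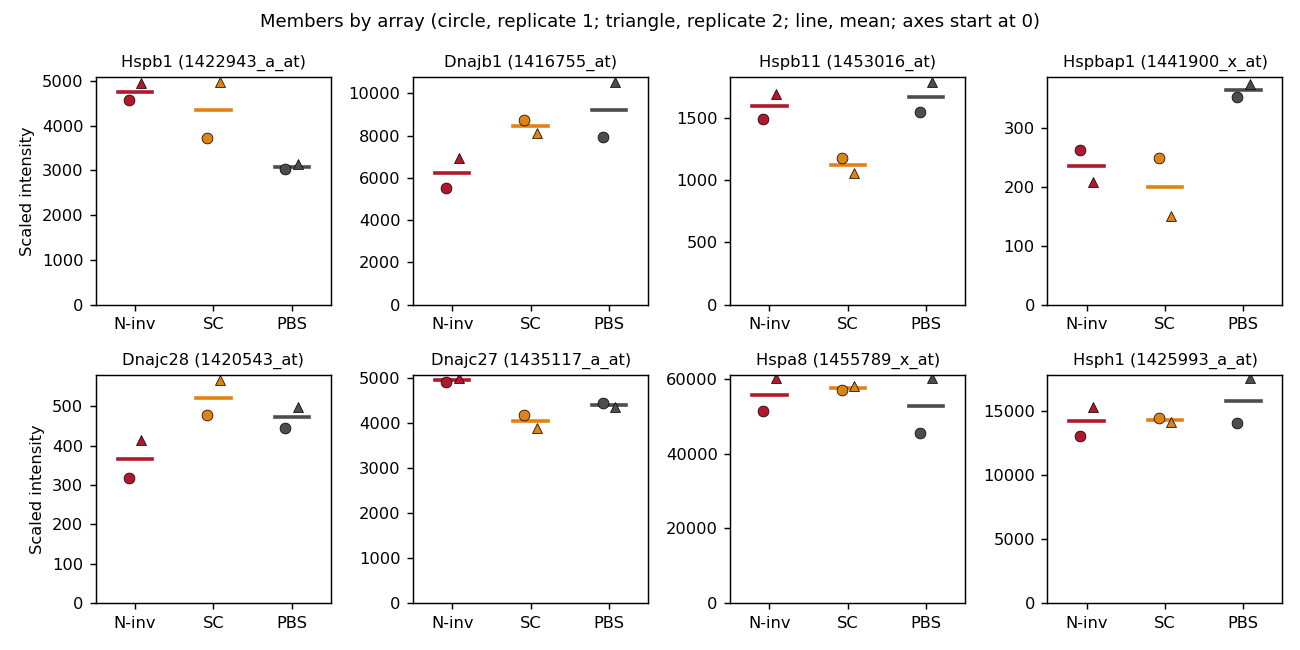
Scaled intensity of 8 members, each by its brightest probe set only, on the 2 arrays of each group. Circles mark replicate 1, triangles replicate 2 and lines group means, and axes start at 0. Hspb1 lies higher and Hspbap1 lower in N-inv and SC than in PBS, Dnajb1 and Dnajc28 lie lowest in N-inv, Hspb11 lies lowest in SC, and the groups overlap for Hspa8 and Hsph1.

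Among the J-domain proteins, Dnajb1 (HSP40), the stress-induced partner of HSP70, was the one that lay furthest below PBS in N-inv. It measured 5542 and 6961 in N-inv, 8747 and 8132 in SC and 7917 and 10520 in PBS. Both N-inv arrays lay below the other 4, and the log2 difference was -0.55 ± 0.21 against PBS (SE; adjusted p = 1.0, limma) and -0.44 ± 0.21 against SC (SE; adjusted p = 0.6, limma). Its second probe set measured 726.5 and 879.3 in N-inv, 919.2 and 724.9 in SC and 1009 and 951.8 in PBS, so that on it N-inv lay below PBS but not below SC. The start regions of Dnajb1 held 0 matches to a pair of units. Dnajb2, a J-domain protein enriched in neurons, measured 6419 and 7016 in N-inv, 5606 and 5265 in SC and 6080 and 6645 in PBS, with SC below the other groups.

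The Dnaja genes, general partners of cytosolic and mitochondrial HSP70, overlapped between N-inv and PBS by their brightest probe sets. A dimmer probe set of each separated N-inv from PBS, higher for Dnaja1 and Dnaja2 and lower for Dnaja3 and Dnaja4. Dnaja2 measured 13570 and 14280 in N-inv, 16010 and 17840 in SC and 13450 and 14260 in PBS by its brightest probe set. Both SC arrays lay above the other 4, by a log2 difference of 0.29 ± 0.16 against PBS (SE; adjusted p = 0.724, limma). A second Dnaja2 probe set gave 0.76 ± 0.15 (SE; adjusted p = 0.518, limma), with 2334 and 2592 in N-inv, 3764 and 3771 in SC and 2190 and 2249 in PBS, and the next gave -0.04 ± 0.15. The probe sets of this gene thus disagreed.

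Of the 24 Dnajc genes above the filter, 14 lay higher and 10 lower in N-inv than in PBS, with log2 differences from -0.35 to 0.24. Dnajc28 measured 317.9 and 414.1 in N-inv, 477.2 and 565.8 in SC and 445.5 and 498.3 in PBS, so that N-inv lay below the other 4 arrays, and its dimmer probe set overlapped between the groups. Dnajc14 measured 1941 and 2153 in N-inv, 1241 and 1764 in SC and 1703 and 1792 in PBS, with N-inv above them. A second Dnajc14 probe set measured 676.4 and 659.2 in N-inv, 539.2 and 514.2 in SC and 726.6 and 765.3 in PBS, with N-inv below PBS. Dnajc27 measured 4900 and 4999 in N-inv, 4183 and 3897 in SC and 4434 and 4346 in PBS. Dnajc24, needed for diphthamide synthesis, had a log2 difference of 0.32 ± 0.18 and Dnajc11, a mitochondrial protein, one of 0.36 ± 0.20 between N-inv and SC (SE; adjusted p = 0.644 and 0.649, limma). Dnajc5, the cysteine string protein of synaptic vesicles, and Dnajc6, the clathrin uncoating factor auxilin, had log2 differences between N-inv and PBS of 0.09 ± 0.17 and 0.01 ± 0.20 (SE). The J-domain proteins of the endoplasmic reticulum Dnajb9, Dnajb11, Dnajc3 and Dnajc10 had 0.02, -0.01, 0.12 and 0.05.

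Most BAG genes encode nucleotide exchange factors of HSP70. Bag3, a stress-induced member, measured 2454 and 2225 in N-inv, 2022 and 2727 in SC and 2773 and 2259 in PBS, and the groups overlapped. Bag5 and Bag6 lay above PBS in both tumour groups. The log2 difference of Bag5 from PBS was 0.22 ± 0.17 for N-inv and for SC, and that of Bag6 was 0.24 ± 0.20 for N-inv and 0.26 ± 0.20 for SC (SE). These differences are close to their standard errors.

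**Figure D3:**
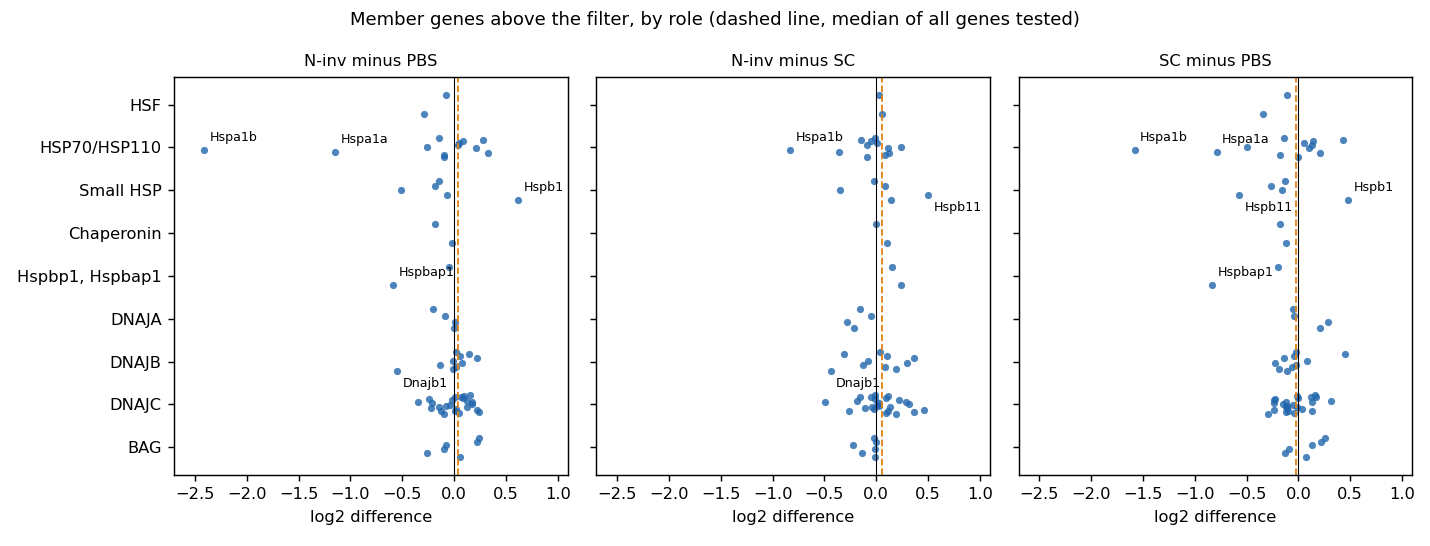
The log2 difference of each of the 67 members above the filter, grouped by role from top to bottom, for N-inv minus PBS, N-inv minus SC and SC minus PBS. Each point is a gene by its brightest probe set, the solid line marks 0 and the dashed line the median of all genes tested; most members lie within 0.5 of 0, and Hspa1b and Hspa1a lie furthest to the left in N-inv minus PBS and Hspb1 furthest to the right.

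Counted over all 67 tested members, 31 lay higher and 36 lower in N-inv than in PBS, with a median log2 difference of -0.01, against 0.04 over all 12626 genes. Of all genes 7571 lay higher and 5055 lower. The 2 N-inv arrays lay above both PBS arrays for 10 members (14.9%), where 25.2% of all genes did, and below them for 11 (16.4%), where 12.6% did. In limma 0 members and 0 of 27022 probe sets (0.0%) passed the adjusted threshold of 0.05, and 1 member lay higher and 4 lower at an unadjusted p under 0.05, against 2.19% and 1.14% of all genes and 4.03% of probe sets in either direction. Those were Hspb1 on the higher side and Hspa1b, Hspa1a, Dnajb1 and Hspbap1 on the lower. Differences over 0.5 in size were seen for 6 members (8.96%), against 4.82% of all genes, and 55 members lay within 0.25.

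Between N-inv and SC, 35 members lay higher and 32 lower, with a median log2 difference of 0.00, against 0.06 over all genes. Of all genes 7638 lay higher and 4988 lower. The N-inv arrays lay above both SC arrays for 13 members (19.4%; 25.4% of all genes) and below them for 7 (10.4%; 11.3% of all genes). Set against SC replicate 1 alone, without SC replicate 2, these counts were 40 and 12 of 67, where 60.5% and 19.2% of all genes did so. In limma 0 members passed the adjusted threshold (0.0% of all probe sets), and at an unadjusted p under 0.05 there were 1 higher, Hspb11, and 1 lower, Dnajc28, against 6.1% and 2.06% of genes and 8.9% of probe sets in either direction. A difference over 0.5 in size was seen for 1 member (1.49%), Hspa1b, against 9.61% of all genes.

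Between SC and PBS, 22 members lay higher and 45 lower, with a median log2 difference of -0.06, against -0.02 over all genes. Of all genes 5912 lay higher and 6714 lower. The members' median was above 0 without SC replicate 1 (0.08) or PBS replicate 2 (0.02). This comparison shares its PBS arrays with the first. The SC arrays lay above both PBS arrays for 11 members (16.4%; 13.7% of all genes) and below them for 14 (20.9%; 19.8% of all genes). With SC replicate 1 alone the counts were 12 and 41 of 67, where 22.2% and 54.2% of all genes did so. In limma 0 members passed the adjusted threshold (0.0% of all probe sets), and at an unadjusted p under 0.05 there were 1 higher, Hspb1, and 3 lower, Hspbap1, Hspb11 and Hspa1b, against 2.24% and 4.49% of genes and 7.88% of probe sets in either direction. The shares of members that did not overlap lie near those of all genes here.

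With SC replicate 2 left out, the named differences that rest on SC kept their direction with a few exceptions. Between SC and PBS the log2 difference was -1.0, -0.70 and -0.28 for the Hspa1b probe sets from the brightest to the dimmest, -0.42 for Hspa1a, 0.27 for Hspb1, -0.49 for Hspb11, -0.51 for Hspbap1 and 0.21 for Dnaja2. It was 0.76 for the second Dnaja2 probe set, 1.86 for the dim Hspa8 probe set, -0.40 for Cryab, a partner described with the lists, and 0.32 for Sgtb, another. Between N-inv and SC it was -1.41, -1.47 and -1.94 for the Hspa1b probe sets in the same order, -0.73 for Hspa1a, 0.42 for Hspb11, -0.49 for Dnajb1, -0.37 for Dnajc28 and 0.71 for Dnajc14. For Dnajb2, Dnajc11, Dnajc24 and Dnajc27 it was 0.26, 0.47, 0.39 and 0.24. The difference between N-inv and SC turned direction for Hspbap1, Hspa9, Hspa5, Hspe1 and Bag3, all of which overlapped between those groups.

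The partners outside the family were described from lists. In the list of HSF1 targets, 18 of 21 genes were above the filter, 12 of them members, and between N-inv and PBS 7 lay higher and 11 lower with a median log2 difference of -0.02. By brightest probe sets N-inv lay above PBS without overlap for 2 genes and below for 3, where 25.2% and 12.6% of all genes did. Beyond Hspa1b, Hspa1a, Dnajb1 and Hspb1 this was 1 gene, Fkbp4. It measured 2393 and 2355 in N-inv, 2133 and 1974 in SC and 2097 and 2161 in PBS. A dimmer probe set of Hsph1, of Hspe1 and of Hspa4l lay lower in N-inv than in PBS without overlap. For Hspa8 and Dnaja1 a dimmer probe set lay higher without overlap. Hsp90aa1, the inducible cytosolic HSP90, measured 35070 and 40210 in N-inv, 36080 and 43890 in SC and 33170 and 36360 in PBS, and the groups overlapped. Cryab, the small heat shock protein alpha-B crystallin, measured 16440 and 20070 in N-inv, 13360 and 13030 in SC and 17220 and 18090 in PBS. Both SC arrays lay below the other 4, by a log2 difference of -0.42 ± 0.17 against PBS (SE; adjusted p = 0.626, limma). Hsp90b1, the HSP90 of the endoplasmic reticulum, measured 11640 and 12540 in N-inv, 10070 and 10430 in SC and 10120 and 11910 in PBS.

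**Figure D4:**
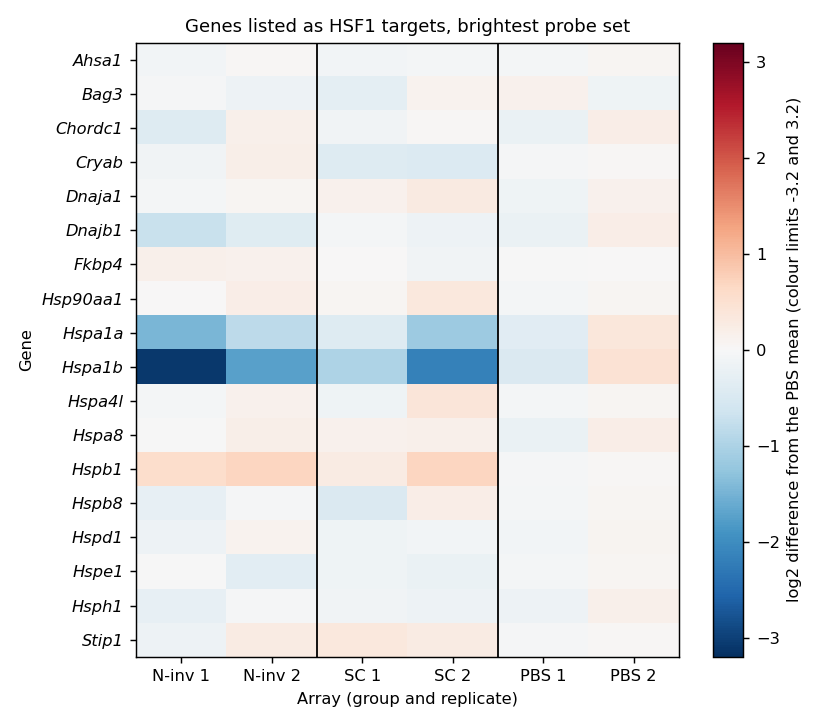
Log2 difference of each array from the PBS mean for the 18 genes listed as HSF1 targets above the filter, with genes as rows and the 6 arrays as columns. Hspa1a and Hspa1b lie below the PBS mean (blue) on all N-inv and SC arrays, and Hspb1 lies above it (red). On SC replicate 1 the colours of Hspa1a and Hspb1 are faint. Dnajb1 lies below the PBS mean on both N-inv arrays, and most other genes are near white.

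In the list of the HSP90 machine 10 of 17 genes lay higher and 7 lower in N-inv than in PBS, with a median log2 difference of 0.05, and 0 were called. Ppp5c, a phosphatase bound to HSP90, measured 2530 and 2660 in N-inv, 1946 and 2425 in SC and 1876 and 2247 in PBS, and the cochaperone Cdc37 measured 4515 and 4313 in N-inv, 4195 and 3821 in SC and 3916 and 3357 in PBS. Fkbp5, a cochaperone of HSP90 and glucocorticoid target, measured 1312 and 1318 in N-inv, 1476 and 5138 in SC and 1209 and 1238 in PBS. Its high value was on SC replicate 2, the array that also had the lower Hspa1b and Hspa1a of the SC pair. The glucocorticoid response list had a median log2 difference of -0.75 between N-inv and SC, with 13 of 13 genes lower and 0 called. Over all genes 4988 of 12626 lay lower. The direction of the list rested on SC replicate 2: without it the median was 0.11, with 9 genes higher and 4 lower. Between N-inv and PBS the list had a median of -0.24, with 4 genes higher and 9 lower (7571 and 5055 over all genes). Without overlap, 6 of 13 lay below PBS and 2 above, where 12.6% and 25.2% of all genes did. The part of this list in the Hspa1b values was not tested.

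Other branches of protein quality control gave small medians between N-inv and PBS. For HSP70 partners, TRiC and prefoldin, the endoplasmic reticulum stress list, the mitochondrial list and the proteasome list these were 0.01, 0.06, 0.08, 0.02 and 0.02, against 0.04 over all genes, with 0 genes called in each. In the endoplasmic reticulum list N-inv lay higher than PBS for 18 of 22 genes, against 7571 of 12626 over all genes. Derl3, a factor for disposal of misfolded proteins from the endoplasmic reticulum, measured 261.9 and 325.4 in N-inv, 45.72 and 77.79 in SC and 245.7 and 94.62 in PBS, and the sensor Atf6 measured 1126 and 1172 in N-inv, 751.2 and 1056 in SC and 869.7 and 977.3 in PBS. Both lay above all other arrays in N-inv. Sgtb, a cochaperone of HSP70, measured 2901 and 2811 in N-inv, 3644 and 3958 in SC and 2808 and 3004 in PBS, with both SC arrays above the other 4. The immediate early list had a median of 0.23 between N-inv and PBS, with 9 of 13 genes higher, against 7571 of 12626 over all genes. Atf3 of this list measured 600.2 and 787.1 in N-inv, 165.8 and 679.8 in SC and 238.9 and 135.1 in PBS, so that N-inv lay above PBS while SC overlapped both.

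The 13 members below the filter were Dnajb3, Dnajb7, Dnajb13, Dnajc5b, Dnajc5g, Dnajc22, Hsf2bp, Hsf5, Hspa12b, Hspa1l, Hspb3, Hspb7 and Hspb9. Their brightest was Hsf5, which averaged 144.6 against the cutoff of 155.2, and the dimmest member above it averaged 165.7. Dnajb8, above the filter, had group means of 154.8 in N-inv and 144.0 in PBS, below the cutoff, and passed through SC.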

How the data were processed

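Per the labels' protocols, TRIzol RNA was labelled by a two-cycle method for Affymetrix 3′ arrays. The authors deposited linear probe set intensity values, 1 column for each of 6 arrays; their 2% trimmed mean was 1000 on each, which shows scaling per array. The sources used here do not give the summarising method. Of 45101 probe sets, 64 controls were left out, and of the rest the platform annotation names 34945 by 1 symbol, 932 by several and 9160 by none. Each array was brought to a shared median of 255.8, and 25.6 was added before log2, so that differences of dim genes are understated. A probe set was tested if its mean over the arrays exceeded the 40th percentile (155.2), which left 27022, and a gene is represented by its brightest one. limma 3.58.1 in R 4.3.3 (lmFit, eBayes) fitted a mean per group over all 6 arrays, with 3 residual and 3.59 prior degrees of freedom and two-sided Benjamini-Hochberg adjustment over all probe sets. In this fit 0 probe sets were called in each comparison, and 1089, 2406 and 2129 had an unadjusted p under 0.05 for N-inv minus PBS, N-inv minus SC and SC minus PBS.

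The fit was tested on simulated data with known changes. Members and lists were chosen with earlier results of these data known, so lists are described by counts and medians beside those of all genes. Named were Hspa1a and Hspa1b by probe set, a fixed set of main chaperones, and the 8 members of smallest p in each comparison; for lists, the genes of smallest p. Others were added for their role after their values were seen: Hspb2, Hspb6, Hspb8, Bag5, Bag6, Dnajc3, Dnajc5, Dnajc6, Dnajc10, Dnajb9, Dnajb11 and Fkbp4. Hsf1 and Hsp90ab1 were not analysed here. Promoter windows were matched to members by symbol. Arrays have no depth, and the number of arrays is what limits precision.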

Additional observations from a re-analysis of the deposited data

Results flagged for a closer look

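Dnajc27 lay in opposite directions in the 2 tumour groups: both N-inv arrays (4900 and 4999) were above and both SC arrays (4183 and 3897) below both PBS arrays (4434 and 4346). The difference between N-inv and SC was 0.29 ± 0.15 on the log2 scale (SE, 2 arrays each), and the adjusted p in limma was 0.629, so it did not pass the threshold. Without SC replicate 2 the log2 difference between SC and PBS was only -0.07. A second probe set of the gene measured 1832 and 1671 in N-inv, 1699 and 1258 in SC and 1747 and 1648 in PBS, where the groups overlapped.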

How the results depend on the processing

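Of 1074 differences of named members under alternatives, 1028 kept their direction and side of the threshold and 46 turned direction, 36 of them on leaving out 1 array; 0 named members passed the adjusted threshold under any. Leaving out each array in turn gave ranges that crossed 0 for these members. For N-inv minus PBS the ranges were Bag3 -0.24 to 0.05, Dnaja2 -0.03 to 0.05, Hspa5 -0.15 to 0.25, Hspa8 -0.11 to 0.29, Hspb11 -0.17 to 0.04, Hspd1 -0.16 to 0.11, Hsph1 -0.31 to 0.01. For N-inv minus SC the ranges were Bag3 -0.22 to 0.21, Hsf2 -0.11 to 0.22, Hspa1a -0.73 to 0.01, the second Hspa1b probe set -1.47 to 0.41, Hspa5 -0.18 to 0.19, Hspa8 -0.16 to 0.06, Hspa9 -0.42 to 0.12, Hspb1 -0.07 to 0.35, Hspbap1 -0.08 to 0.56, Hspd1 -0.04 to 0.24, Hspe1 -0.15 to 0.16, Hsph1 -0.13 to 0.10. For SC minus PBS the ranges were Bag3 -0.30 to 0.12, Dnajb1 -0.32 to 0.09, Dnajc14 -0.48 to 0.01, Hspa5 -0.16 to 0.25, Hspa8 -0.06 to 0.34, Hsph1 -0.30 to 0.02. With quantile normalization the difference N-inv minus PBS was -0.05 for Dnaja2, -0.04 for Hspa5 and -0.04 for Hspa8, N-inv minus SC was -0.01 for Hspa5 and -0.05 for Hspe1, and SC minus PBS was -0.03 for Hspa5 and -0.03 for Hspa8. With values as deposited Dnaja2 was at -0.03 for N-inv minus PBS, and Hspa5 and Hspe1 at -0.05 each for N-inv minus SC. The cause was not tested.

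The count of probe sets called over all genes was 0 in each comparison. For N-inv minus PBS it was 1 (Sprr1a) with only the groups compared, 1 (Depp1) with an intensity trend and 0 to 1 on leaving out an array; for N-inv minus SC it was 2 with an intensity trend and 0 to 2 on leaving out an array; for SC minus PBS it was 0 to 10, the 10 without SC replicate 1. None was a member. The median member difference for SC minus PBS lay between -0.15 and 0.08 on leaving out an array, with 0.08 without SC replicate 1. Counts without SC replicate 2, chosen after seeing the data, were 40 higher and 12 lower members for N-inv minus SC and 12 higher and 41 lower for SC minus PBS, since 1 array is easier to clear than 2. With the replicate number as a block 0 probe sets were called in each comparison and Hspa1b stood at -2.41 for N-inv minus PBS; same-numbered arrays deviated with correlations of 0.0103, 0.0373 and -0.0322, so the numbers do not pair the arrays. The block changed no call of a named member. The 2 arrays a group limit the precision of all differences, and the 13 dim members were not compared.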
